A study of Mus musculus with 4 samples.

Results

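Intestinal hormones are made by enteroendocrine cells, a sparse population of secretory epithelial cells that sense the contents of the gut lumen. Their peptide hormones are cut from larger precursors at paired basic residues, packed with granins into dense-core granules and released towards the blood and nearby nerves. The mixture of hormones changes along the gut, and peptide YY, the proglucagon peptides and neurotensin are typical products of the ileum. The genes described here are 10 mouse genes chosen by name as hormone, granin and serotonin-synthesis genes of these cells: Sct, Pyy, Gcg, Cck, Nts, Tac1, Chga, Chgb, Gip and Tph1. All 10 were found among 11489 genes with a deposited value, as 18 of 21160 transcripts.

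The study asked how the pregnane X receptor (PXR), a nuclear receptor that senses foreign chemicals, acts in the intestine. Ileum total RNA was sequenced from wild-type C57BL/6J mice 8 weeks old after 3 intraperitoneal injections 8 h apart, with a last interval of 8 h before sacrifice. The PCN group received the rodent PXR agonist PCN, pregnenolone carbonitrile, at 40 mg/kg, and the other group received vehicle, labelled DMSO. There were 2 libraries per group, no allele was altered in either group, and the labels do not tie each library to an animal of its own, so that the p-values measure the spread between libraries, which may be technical.

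The libraries summed to between 481925 and 550832 FPKM (fragments scaled to transcript length and to the mapped total of the library), and 3.87% to 7.15% of transcripts were listed at 0. The ileal bile acid-binding protein Fabp6 stood at 3652 to 8059 FPKM and the ileal bile acid transporter Slc10a2 at 155 to 219 FPKM, and 1 of 12 pancreatic genes had a value. Of the PXR readouts, Cyp3a11, a drug-metabolising cytochrome P450, was at 26.1 and 14.7 FPKM in vehicle replicates 1 and 2 and at 163 and 214 FPKM in PCN replicates 1 and 2 (limma adjusted p = 0.0640). Nr1i2, which encodes PXR, was at 27.9 to 36.4 FPKM. Vehicle replicate 2 stood apart in smooth muscle transcripts. The 14 smooth muscle genes summed to 497, 999, 286 and 361 FPKM in vehicle replicates 1 and 2 and PCN replicates 1 and 2. In whole tissue, a lower level from fewer hormone-making cells and one from less RNA per cell cannot be told apart.

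None of the 10 genes passed a limma test of PCN against vehicle at an adjusted p of 0.05 (Benjamini-Hochberg over 11103 genes), against 0.135% of all tested genes (9 higher and 6 lower). At an unadjusted p under 0.05 there were 3 of the 10, Pyy with a higher and Sct and Nts with a lower mean in PCN, against 9.36% of all tested genes. Both PCN libraries lay above both vehicle libraries for Pyy and Tac1, an ordering that 21.1% of all genes showed. Both lay below for Sct, Nts and Chga, as they did for 19.1% of all genes, and the groups overlapped for the other 5 genes. With 2 and 3 of 10 genes in these orderings, the counts were near the background. The estimated log2 fold changes were positive for 4 genes and negative for 6, with a median of -0.05 against 0.0029 over all genes.

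The size of these differences sets the scale for what follows. The median absolute log2 fold change was 0.17 over the 10 genes and 0.14 over all genes, while the smallest absolute log2 fold change among the 15 called genes was 0.73. The median absolute log2 difference between the libraries of a group was 0.13 for the 10 genes and 0.15 for all genes. An exact permutation test of 2 libraries against 2 cannot give a two-sided p below 0.333, so each p below comes from limma, which shares the spread across genes.

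**Figure D1:**
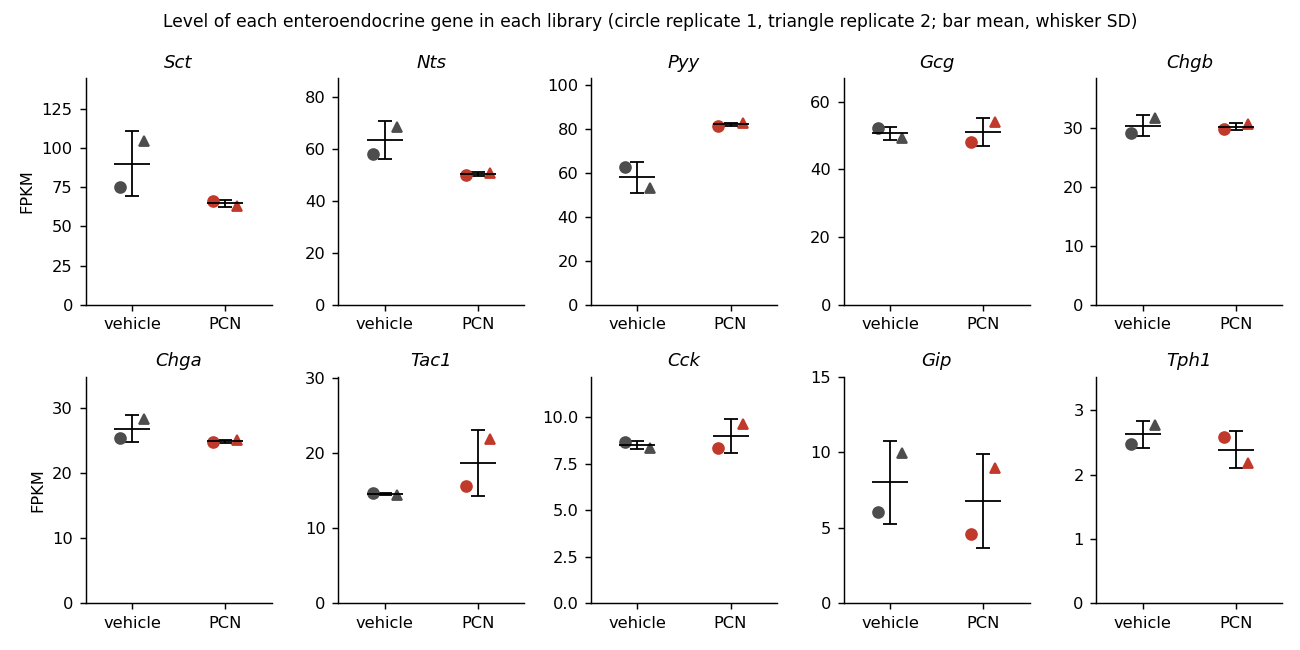
Level of each of the 10 genes in FPKM (vertical axes from 0) in vehicle and PCN libraries, with circles for replicate 1, triangles for replicate 2, bars for group means and whiskers for the SD (n = 2). The PCN libraries of Pyy, at 81.4 and 82.5 FPKM, sit above both vehicle libraries, those of Sct, Nts and Chga sit below, and Gip differs more within the groups than between their means.

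The peptides typical of the ileum are considered first. Pyy (chromosome 11, 102106676 to 102107832, minus strand, mm10) encodes peptide YY, a hormone of L cells that slows gut transit and reduces food intake. The coding sequence of its main transcript Pyy-201 (GENCODE M21 on mm10, without the stop codon) is shown. It holds the hormone between its 5′ signal region and the second marked pair. Capitals mark the in-frame pairs of lysine or arginine codons. The first lies in the signal region, and the second follows the glycine codon next to the end of the hormone.
Pyy-201 coding sequence: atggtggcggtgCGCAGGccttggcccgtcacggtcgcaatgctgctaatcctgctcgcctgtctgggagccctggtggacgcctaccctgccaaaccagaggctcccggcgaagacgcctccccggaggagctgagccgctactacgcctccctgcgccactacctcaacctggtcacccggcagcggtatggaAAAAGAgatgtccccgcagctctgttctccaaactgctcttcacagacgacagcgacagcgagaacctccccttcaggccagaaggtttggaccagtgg

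Pyy was at 62.8 and 52.9 FPKM in vehicle replicates 1 and 2 and at 81.4 and 82.5 FPKM in PCN replicates 1 and 2. Both PCN libraries were higher than both vehicle libraries, and they lay close to each other. The means were 57.9 ± 7.01 and 82.0 ± 0.728 FPKM (SD, n = 2), a ratio of 1.42. On the scale of log2(FPKM + 1), the fold change was 0.50 ± 0.10 (SE), with a 95% interval of 0.24 to 0.76, an unadjusted limma p of 0.00463 and an adjusted p of 0.220. Pyy thus had the smallest p of the 10 genes, and it ranked 233 by p among 11103 genes. The estimate stayed positive in 14 of 14 alternative analyses, with 0.38 when vehicle replicate 2 was left out and 0.24 when the fit was adjusted for smooth muscle transcripts.

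The Pyy total was divided between a pair of transcripts that differ at the end of exon 3, where Pyy-204 holds 6 further bases, shown in capitals in the junction sequences.
Pyy-201 exon 3 to 4: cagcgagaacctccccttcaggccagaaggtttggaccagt
Pyy-204 exon 3 to 4: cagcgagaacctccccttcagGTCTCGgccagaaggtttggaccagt
Pyy-201 was at 49.1 and 41.7 FPKM in the vehicle libraries and at 62.0 and 68.9 FPKM in the PCN libraries. Pyy-204 was at 13.7 and 11.2 FPKM in vehicle and at 19.5 and 13.6 FPKM in PCN. The groups did not overlap for Pyy-201, and for Pyy-204 PCN replicate 2 fell between the vehicle libraries. Pyy-201 made up 76.1% to 83.5% of the gene in every library.

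Gcg (chromosome 2, 62474530 to 62483650, minus strand) encodes proglucagon, which L cells cut into the glucagon-like peptides GLP-1, an incretin, and GLP-2, a growth factor of the gut epithelium. Exon 4 of its main transcript Gcg-201, which holds the codons of GLP-1, is shown with the flanking basic pairs in capitals.
Gcg-201 exon 4: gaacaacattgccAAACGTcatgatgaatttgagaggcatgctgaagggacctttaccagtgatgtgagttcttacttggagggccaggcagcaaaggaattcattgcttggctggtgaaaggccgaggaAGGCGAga
Gcg was at 52.0 and 49.2 FPKM in vehicle and at 48.0 and 53.9 FPKM in PCN. The PCN libraries lay on either side of both vehicle libraries. The means were 50.6 ± 1.97 and 50.9 ± 4.19 FPKM, and the log2 fold change was 0.01 ± 0.09 with a 95% interval of -0.23 to 0.24 (adjusted p = 0.987). The transcript nearest to Gcg-202, an annotation with a further 5′ exon and an incomplete 3′ end, was at 5.31 and 5.48 FPKM in vehicle and at 0.00324 and 2.02 FPKM in PCN. Gcg-201 was at 46.7 and 43.8 FPKM in vehicle and at 48.0 and 51.9 FPKM in PCN, so that the split between both transcripts differed between the groups while the total did not separate them. The split is an estimate from shared reads, and the difference in it was not tested.

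Nts (chromosome 10, 102481756 to 102490486, minus strand) encodes the precursor of neurotensin and neuromedin N, made by N cells of the distal small intestine and known for slowing motility and promoting fat absorption. Its last 150 coding bases are shown because both peptides lie there. Capitals mark 5 pairs of lysine or arginine codons, overlapping pairs counted, and the pair before the last lies inside neurotensin.
Nts-201 last coding bases: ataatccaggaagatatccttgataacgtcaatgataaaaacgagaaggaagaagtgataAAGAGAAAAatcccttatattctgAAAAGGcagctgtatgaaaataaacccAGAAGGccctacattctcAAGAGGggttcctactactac
Nts was at 58.1 and 68.4 FPKM in vehicle and at 49.8 and 50.7 FPKM in PCN. Both PCN libraries were lower than both vehicle libraries, and vehicle replicate 2 was the highest. The means were 63.3 ± 7.30 and 50.3 ± 0.644 FPKM, a ratio of 0.795. The log2 fold change was -0.32 ± 0.10, with a 95% interval of -0.58 to -0.06, an unadjusted p of 0.0255 and an adjusted p of 0.439. Without vehicle replicate 2, the library with the highest smooth muscle sum, the estimate was -0.20 (unadjusted p = 0.0827). Adjusted for smooth muscle transcripts it was -0.06.

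Because the 3 ileal hormones were at similar levels, their ratios were read within each library. Gcg stood at 0.828 and 0.931 of Pyy in vehicle replicates 1 and 2 and at 0.589 and 0.654 in PCN replicates 1 and 2. Nts stood at 0.925 and 1.29 of Pyy in vehicle and at 0.612 and 0.615 in PCN. Both ratios were lower in both PCN libraries, with no overlap, and they contain the same Pyy values as above. The levels of Pyy and Nts already separated the groups, so the ratios add no support. The summed FPKM of Gcg, Pyy and Nts was 173 and 171 in vehicle and 179 and 187 in PCN, also without overlap.

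The hormones best known from the upper small intestine were also measured in the ileum. Sct (chromosome 7, 141278330 to 141279133, minus strand) encodes secretin, which drives bicarbonate and water secretion from the pancreatic ducts. Sct was at 75.5 and 105 FPKM in vehicle and at 66.5 and 63.1 FPKM in PCN. Both PCN libraries were lower, and vehicle replicate 2 stood far above the other 3 libraries. The means were 90.3 ± 20.9 and 64.8 ± 2.41 FPKM, a ratio of 0.718. The log2 fold change was -0.45 ± 0.17, with a 95% interval of -0.88 to -0.03, an unadjusted p of 0.0405 and an adjusted p of 0.501. The estimate was -0.22 without vehicle replicate 2 (unadjusted p = 0.0774), -0.69 without vehicle replicate 1 and 0.04 when adjusted for smooth muscle transcripts. The smooth muscle score used for adjustment was 4.44 and 5.29 in vehicle and 3.71 and 3.97 in PCN, without overlap. The adjusted fits, here and for other genes, therefore cannot separate PCN from smooth muscle content, and they leave 1 residual degree of freedom. The part of smooth muscle content in the Sct and Nts values was not tested.

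Sct was the only one of the 10 genes with 3 transcripts, nearest to the annotations Sct-204, Sct-202 and Sct-201. They share the first 185 coding bases, through exons 1 and 2, and differ at the starts of exons 3 and 4. The junctions are shown because only 1 of these forms was lower in both PCN libraries than in both vehicle libraries. Capitals mark the 7 bases that Sct-204 lacks, which moves its reading frame after the secretin codons, and the 18 bases that are present in Sct-201 alone.
Sct-201 exon 2 to 3: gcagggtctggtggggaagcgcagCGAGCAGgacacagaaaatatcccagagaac
Sct-202 exon 2 to 3: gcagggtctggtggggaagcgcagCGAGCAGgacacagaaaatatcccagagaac
Sct-204 exon 2 to 3: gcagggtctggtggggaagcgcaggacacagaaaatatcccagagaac
Sct-201 exon 3 to 4: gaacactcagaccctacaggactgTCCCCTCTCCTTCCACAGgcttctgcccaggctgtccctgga
Sct-202 exon 3 to 4: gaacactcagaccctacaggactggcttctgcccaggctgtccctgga
Sct-204 was at 36.4 and 57.0 FPKM in vehicle and at 18.2 and 22.7 FPKM in PCN. Sct-202 was at 24.7 and 33.2 FPKM in vehicle and at 34.5 and 18.4 FPKM in PCN. Sct-201 was at 14.4 and 14.8 FPKM in vehicle and at 13.8 and 22.0 FPKM in PCN. Only Sct-204 separated the groups, at 48.2% and 54.3% of the gene in vehicle against 27.4% and 36.0% in PCN. Tested alone, Sct-204 had a log2 fold change of -1.13 (limma adjusted p = 0.360 over all transcripts). These forms differ by few bases, so the division of reads between them is uncertain, and in 1 library the Sct-204 value was identical to that of a transcript of another gene.

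The deposited locus of the Sct transcripts also spans Cdhr5, a brush border cadherin on the same strand whose 5′ start lies 1543 bases past the 3′ end of Sct. Cdhr5 was at 533 and 514 FPKM in vehicle and at 536 and 501 FPKM in PCN, with overlapping groups. Both genes are read in the same direction, with Sct upstream, and how reads in the shared locus were divided between them was not tested.

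**Figure D2:**
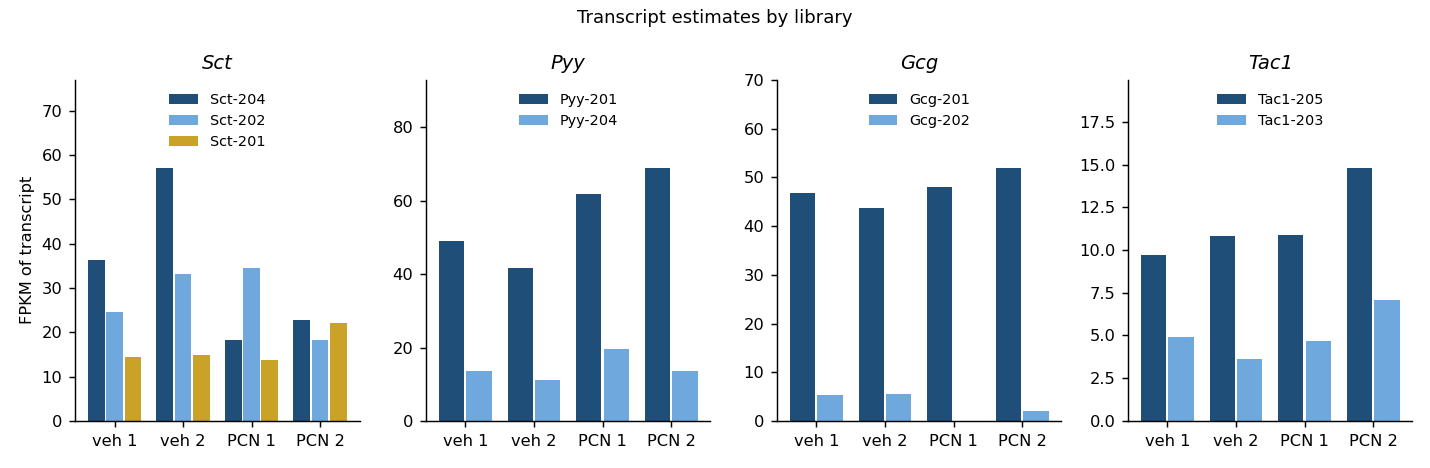
FPKM of each transcript (vertical axes from 0) of Sct, Pyy, Gcg and Tac1 in the 4 libraries, named by the nearest reference transcript. Sct-204 stands at 36.4 and 57.0 FPKM in vehicle and at 18.2 and 22.7 in PCN, Pyy-201 is higher in both PCN libraries, and Gcg-202 is near 0 in PCN replicate 1.

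Cck (chromosome 9, 121489824 to 121495694, minus strand) encodes cholecystokinin, the hormone of I cells that contracts the gallbladder and releases pancreatic enzymes. It was at 8.66 and 8.36 FPKM in vehicle and at 8.33 and 9.65 FPKM in PCN. The PCN libraries enclosed both vehicle values, with means of 8.51 ± 0.211 and 8.99 ± 0.938 FPKM and a log2 fold change of 0.07 ± 0.13 (95% interval -0.28 to 0.41, adjusted p = 0.909).

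Gip (chromosome 11, 96024545 to 96030831, plus strand) encodes the incretin of K cells. It was at 6.05 and 9.95 FPKM in vehicle and at 4.56 and 8.95 FPKM in PCN. Replicate 1 was the lower library in both groups, and the groups overlapped. The means were 8.00 ± 2.76 and 6.75 ± 3.10 FPKM and the log2 fold change was -0.24 ± 0.36, the widest interval of the 10 genes (-1.16 to 0.68, adjusted p = 0.871). The interval includes the size estimated for Pyy in either direction.

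The summed FPKM of Sct, Cck and Gip was 90.2 and 123 in vehicle and 79.4 and 81.7 in PCN. Sct held most of that sum in every library.

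Enterochromaffin cells store serotonin and, in the mouse, make tachykinins. Tac1 (chromosome 6, 7554879 to 7565834, plus strand) encodes the precursor of substance P and neurokinin A and is also expressed by enteric neurons. The exon that separates its transcripts is shown, with the 45 bases present in Tac1-205 and absent from Tac1-203 in capitals.
Tac1-205 exon 4: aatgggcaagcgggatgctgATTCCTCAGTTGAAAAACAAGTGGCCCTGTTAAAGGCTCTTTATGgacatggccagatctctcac
Tac1 was at 14.7 and 14.4 FPKM in vehicle and at 15.6 and 21.8 FPKM in PCN. Both PCN libraries were higher, but PCN replicate 1 was close to the vehicle libraries and PCN replicate 2 stood well above the rest. The means were 14.5 ± 0.163 and 18.7 ± 4.43 FPKM, a ratio of 1.29, and the log2 fold change was 0.32 ± 0.18 (95% interval -0.13 to 0.77, unadjusted p = 0.124, adjusted p = 0.656). The estimate was 0.09 without PCN replicate 2 and 0.56 without PCN replicate 1. Tac1-205 was at 9.73 and 10.8 FPKM in vehicle and at 10.9 and 14.8 FPKM in PCN, and Tac1-203 was at 4.93 and 3.64 FPKM in vehicle and at 4.70 and 7.05 FPKM in PCN. Both transcripts were highest in PCN replicate 2.

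Tph1 (chromosome 7, 46644641 to 46672537, minus strand) encodes tryptophan hydroxylase, the rate-limiting enzyme of serotonin synthesis in these cells. It was the lowest of the 10 genes in every library, at 2.47 and 2.78 FPKM in vehicle and at 2.59 and 2.18 FPKM in PCN. The groups overlapped, with means of 2.63 ± 0.217 and 2.39 ± 0.286 FPKM and a log2 fold change of -0.10 ± 0.18 (95% interval -0.57 to 0.37, adjusted p = 0.898). Tac1 exceeded Tph1 by a ratio of 5.93 and 5.19 in vehicle and of 6.02 in PCN replicate 1, and the ratio was larger in PCN replicate 2.

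The granins are soluble proteins of the dense-core granule shared by most enteroendocrine types. Chga (chromosome 12, 102554969 to 102565028, plus strand) was at 25.5 and 28.3 FPKM in vehicle and at 24.8 and 25.1 FPKM in PCN. Both PCN libraries were lower, by less than 1 FPKM from vehicle replicate 1, and the log2 fold change was -0.10 ± 0.10 (95% interval -0.35 to 0.14, adjusted p = 0.784). Chgb (chromosome 2, 132781278 to 132795079, plus strand) was at 29.2 and 31.7 FPKM in vehicle and at 29.9 and 30.8 FPKM in PCN. Both PCN values lay between the vehicle values, and the log2 fold change was -0.0039 ± 0.09 (95% interval -0.23 to 0.23, adjusted p = 0.992). Chga and Chgb summed to 54.6 and 60.0 FPKM in vehicle and to 54.6 and 55.8 FPKM in PCN.

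**Figure D3:**
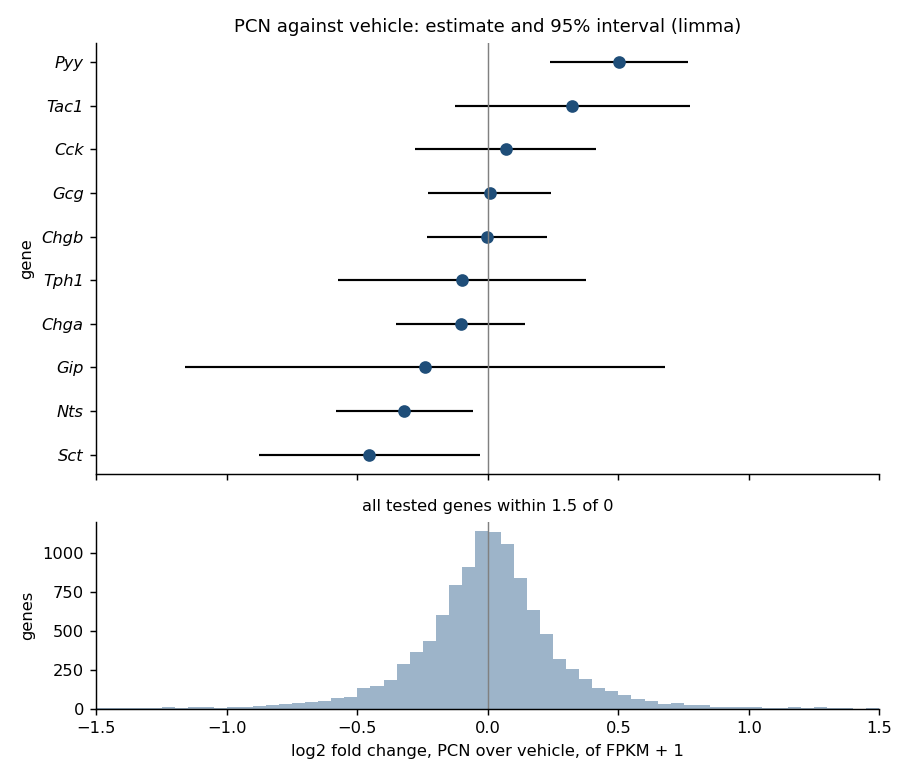
Upper panel, log2 fold change of FPKM + 1, PCN over vehicle, for each of the 10 genes (points) with its 95% limma interval (lines). Lower panel, number of tested genes by log2 fold change, for the 11010 of 11103 genes within 1.5 of 0, and the 10 estimates, from -0.45 for Sct to 0.50 for Pyy, lie within the spread of all genes.

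Pyy, Sct and Nts were also read against Chgb, the gene of the 10 with the smallest absolute log2 fold change. Pyy stood at 2.15 and 1.67 times Chgb in vehicle and at 2.73 and 2.68 times in PCN. Sct stood at 2.59 and 3.31 times Chgb in vehicle and at 2.23 and 2.05 times in PCN. Nts stood at 1.99 and 2.16 times Chgb in vehicle and at 1.67 and 1.65 times in PCN. None of these 3 ratios overlapped between the groups. Chgb was picked for its flat level, and the levels of the 3 genes already separated the groups, so the ratios add no support. Gcg stood at 1.78 and 1.55 times Chgb in vehicle and at 1.61 and 1.75 times in PCN, with overlap. Chga stood at 0.874 and 0.893 of Chgb in vehicle and at 0.829 and 0.815 in PCN, without overlap.

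The 10 genes together summed to 335 and 371 FPKM in vehicle and to 331 and 349 FPKM in PCN (353 ± 25.6 and 340 ± 12.2). The groups overlapped in this sum. Its composition differed more. Sct held 22.5% and 28.3% of the sum in vehicle and 20.1% and 18.1% in PCN. Pyy held 18.8% and 14.3% in vehicle and 24.6% and 23.7% in PCN. Sct was the first of the 10 genes in both vehicle libraries and Pyy the first in both PCN libraries. Nts held 17.3% and 18.4% in vehicle and 15.0% and 14.6% in PCN, and Gcg held 13.3% to 15.5% in all 4 libraries with overlapping groups. Chgb, Chga, Tac1 and Tph1 kept ranks 5, 6, 7 and 10 in every library. Chga and Chgb were neighbours in that order, and so were Gcg, Nts and Pyy in vehicle, at levels that differed by little more than the spread between libraries. These shares sum to a fixed total, so a higher share of 1 gene lowers the others, and they were not tested.

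**Figure D4:**
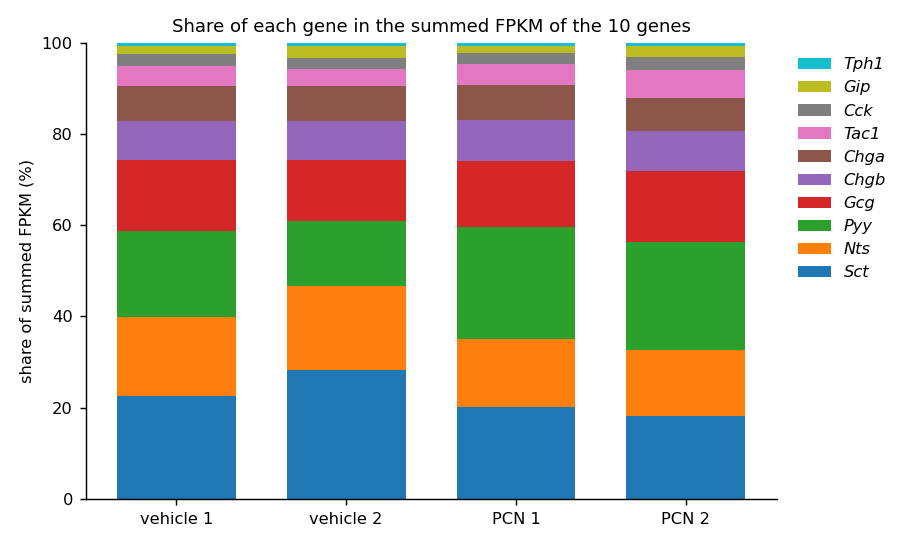
Share (%) of each gene in the summed FPKM of the 10 genes in each library, drawn as stacked bars to 100. Pyy takes 18.8% and 14.3% in vehicle and 24.6% and 23.7% in PCN, and Sct takes 22.5% and 28.3% in vehicle and 20.1% and 18.1% in PCN.

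The genes that form, fill and regulate enteroendocrine cells were read from lists of the same subject. Of 20 transcription factors of the lineage, 4 were in the table and none passed the test, with 2 positive and 2 negative estimates. Neurod1, a late differentiation factor of the lineage, was at 1.45 and 1.21 FPKM in vehicle and at 1.73 and 2.32 FPKM in PCN (adjusted p = 0.678). Neurog3, which starts the lineage, was not analysed here because it had no row. Foxa1, which is expressed through much of the epithelium, was at 10.1 to 14.2 FPKM with overlapping groups.

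Of 22 genes of secretory granules and peptide processing, 14 were tested, of which 2 had positive and 12 negative estimates (median log2 fold change -0.22), and none passed the test. Cpe, carboxypeptidase E, which trims the basic residues left after precursor cleavage, was at 10.5 and 21.3 FPKM in vehicle and at 9.28 and 12.6 FPKM in PCN. Scg2, secretogranin II, was at 12.0 and 18.0 FPKM in vehicle and at 12.0 and 10.6 FPKM in PCN. Both genes were highest in vehicle replicate 2, the library highest in smooth muscle and neuronal transcripts, and both overlapped between the groups. The 8 tested neuronal genes gave 2 positive and 6 negative estimates with none called, and the neuronal list summed to 17.5, 26.3, 13.9 and 21.6 FPKM in vehicle replicates 1 and 2 and PCN replicates 1 and 2. Uchl1 (3.47 to 5.56 FPKM) and Ret (2.79 to 3.96 FPKM) were its most abundant genes. The part of neuronal RNA in the values of Tac1 and the granule genes was not tested.

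Of 8 genes of amine synthesis and storage, 6 were tested, with 2 positive and 4 negative estimates and none called. The most abundant were Qdpr and Spr, both of tetrahydrobiopterin metabolism, which supplies the cofactor of tryptophan hydroxylase. Qdpr was at 76.4 and 75.6 FPKM in vehicle and at 70.6 and 64.9 FPKM in PCN (adjusted p = 0.593). Spr was at 38.1 and 39.1 FPKM in vehicle and at 34.6 and 33.4 FPKM in PCN (adjusted p = 0.572). Both genes were lower in both PCN libraries.

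Of 19 other gut hormones and peptides, 10 were tested, with 2 positive and 8 negative estimates (median -0.29) and none called. The most abundant were the guanylins, peptides that raise fluid secretion and are made by several epithelial cell types. Guca2b, uroguanylin, was at 337 and 401 FPKM in vehicle and at 218 and 195 FPKM in PCN, a log2 fold change of -0.83 ± 0.11 (adjusted p = 0.109). Guca2a, guanylin, was at 1029 and 1064 FPKM in vehicle and at 908 and 786 FPKM in PCN, a log2 fold change of -0.31 ± 0.09 (adjusted p = 0.383). Their receptor Gucy2c was at 78.2 to 86.4 FPKM with overlapping groups (adjusted p = 0.956). After the values were seen, Sst, somatostatin of D cells, was added for its narrow range of 39.1 to 40.9 FPKM over all 4 libraries.

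Of 15 genes listed as sensing receptors, 4 were in the table and tested: Ffar1, Ffar2, Ffar4 and the guanylin receptor Gucy2c named above. All 4 had positive estimates, none called, and the estimates were small (median log2 fold change 0.02). Ffar4, a receptor of long-chain fatty acids, was at 5.62 and 5.68 FPKM in vehicle and at 6.17 and 5.20 FPKM in PCN. Of 22 receptors of the hormones themselves, 3 were tested and none passed. Sort1, the neurotensin-binding sortilin, was at 27.5 to 33.5 FPKM and Glp2r, the GLP-2 receptor, at 2.38 to 2.65 FPKM, both with overlapping groups. At an unadjusted limma p under 0.05 there were 0 transcription factors, 1 granule gene, 1 amine gene, 3 other hormone genes, 0 sensing receptors, 0 hormone receptors and 1 neuronal gene, against 9.36% of all tested genes.

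The 1 gene of these lists that passed the test removes peptides. Mme encodes neprilysin, a membrane peptidase that degrades substance P, neurotensin and other small peptides. It was at 20.9 and 20.8 FPKM in vehicle and at 7.38 and 7.26 FPKM in PCN. The replicates nearly coincided and the groups were far apart, with a log2 fold change of -1.39 ± 0.11 and an adjusted limma p of 0.0481. The adjusted p was close to the threshold, and Mme was not called when any 1 library was left out, without the variance trend, for single transcripts or after adjustment for smooth muscle transcripts. Of the 11 tested genes of hormone clearance, 3 had positive and 8 negative estimates, and Mme alone was called. Anpep, aminopeptidase N, was at 2016 to 2468 FPKM with overlapping groups.

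After the values were seen, 3 further clearance genes were added for what they act on. Dpp4, which inactivates GLP-1 and GIP, was at 145 and 142 FPKM in vehicle and at 143 and 135 FPKM in PCN, with overlapping groups. Maoa, which degrades serotonin, was at 121 and 107 FPKM in vehicle and at 80.9 and 62.0 FPKM in PCN (log2 fold change -0.68 ± 0.15, adjusted p = 0.246). Slc6a4, the serotonin transporter, was at 2.38 and 5.73 FPKM in vehicle and at 1.66 and 0.906 FPKM in PCN (adjusted p = 0.501). Maoa and Slc6a4 were lower in both PCN libraries and did not pass the test.

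Smooth muscle and mast cell markers spread over a wider range of library sums than the 10 genes did. All 14 smooth muscle genes had negative estimates (median log2 fold change -0.94), 10 of them at an unadjusted p under 0.05 (9.36% of all tested genes) and none called. Acta2 was at 92.1 and 155 FPKM in vehicle and at 59.4 and 75.1 FPKM in PCN, and Myl9 at 73.4 and 156 FPKM in vehicle and at 46.0 and 57.7 FPKM in PCN. The mast cell genes, 3 of them tested and all with negative estimates, summed to 67.0 and 61.3 FPKM in vehicle and to 15.0 and 10.2 FPKM in PCN. Mcpt1 was at 41.8 and 35.0 FPKM in vehicle and at 5.78 and 2.80 FPKM in PCN, and Mcpt2 at 17.8 and 18.3 FPKM in vehicle and at 3.11 and 1.56 FPKM in PCN (adjusted p = 0.0650 for both). Mast cells can also express Tph1, and the part of these cells in the Tph1 values was not tested. The 10 epithelial reference genes summed to 6998, 6663, 6753 and 6160 FPKM in vehicle replicates 1 and 2 and PCN replicates 1 and 2, led by Krt8 and Epcam. The 11 goblet cell genes, led by Zg16 and Tff3, summed to 15047 to 16044 FPKM, the tuft cell genes to 17.9 to 23.6 FPKM and the enteric glia genes Gpm6b and Ncam1, with 1 low gene beside them, to 2.36 to 5.03 FPKM.

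**Figure D5:**
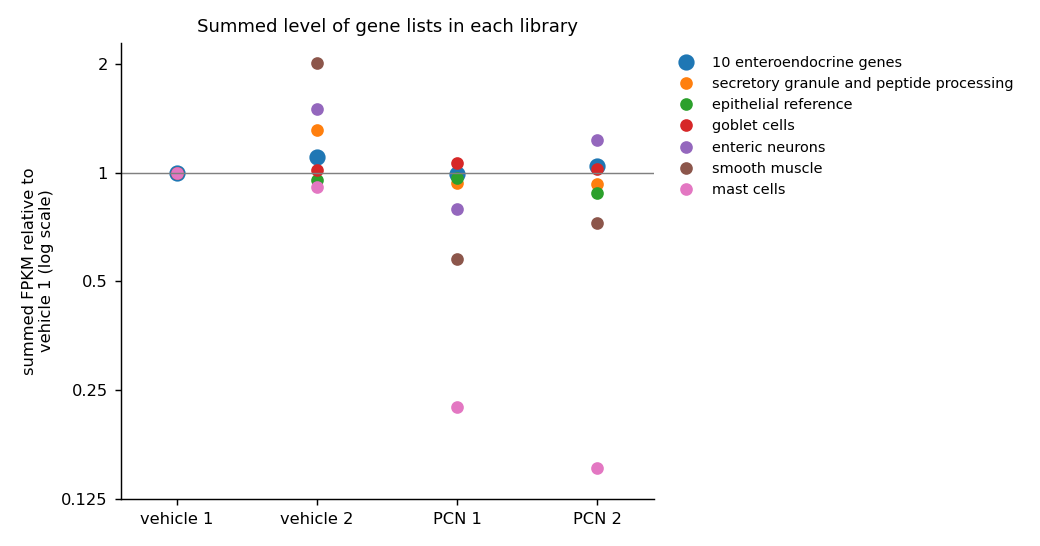
Summed FPKM of each gene list in each library relative to vehicle replicate 1 (log scale, 1 point per list and library). The 10 enteroendocrine genes stay between 0.99 and 1.11, while smooth muscle genes reach 2.01 in vehicle replicate 2 and mast cell genes 0.152 in PCN replicate 2.

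PXR binds DNA with its partner RXR at repeats of a short half-site, so the letters before the start sites were read. The half-sites AGGTCA and AGTTCA were searched on both strands of the 250 bases before each annotated start (RefSeq, GRCm38.p6), and the 10 genes had 12 such windows. AGGTCA was present in the windows of Tph1 and Sct, against 14.0% of 32851 windows of all genes. AGTTCA was present in the window of Nts and in 1 of the Pyy windows, against 11.8% of all windows. No window of the 10 genes held 2 of these half-sites as a direct repeat with a spacer of 3 or 4 bases. Only 0.037% of all windows held one, so its absence from 12 windows says little. Other orientations and spacers of paired half-sites, other half-sites and positions beyond the 250 bases were not searched, so the presence of PXR elements was not tested. The Sct window, chr7:141279134-141279383 on the minus strand, is shown because that gene had the lowest estimate of the 10. Capitals mark the reverse complement of AGGTCA, 114 bases before the start, and TATAAA, 28 bases before it, a motif that 12.4% of all windows held.
Sct promoter: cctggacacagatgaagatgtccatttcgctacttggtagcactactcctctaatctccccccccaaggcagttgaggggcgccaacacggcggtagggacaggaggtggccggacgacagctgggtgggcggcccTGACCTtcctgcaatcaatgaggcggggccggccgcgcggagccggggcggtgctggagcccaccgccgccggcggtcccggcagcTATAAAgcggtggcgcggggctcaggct
The cyclic AMP response element TGACGTCA was present in the Chgb window, against 1.55% of all windows, and its core TGACGT was in those of Chga and Chgb, against 6.47%. The E-box CANNTG, a motif of the neurogenin and NeuroD factors, was in 10 of 12 windows, against 66.2% of all windows. These matches describe letters, and binding was not measured.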

How the data were processed

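Libraries were made from ileum total RNA, 2 per group, and groups came from the labels. The values were FPKM per transcript as deposited by the authors, on mm10 per the submitters' notes. The aligner and quantifier are not given in the sources used here. Supplementary methods of the study describe colon and a pig genome and were not taken as their source. The table held protein-coding transcripts whose larger group mean exceeded 1 FPKM (smallest 1.00005). FPKM are estimates that divide shared reads, an exact 0 can be a failed estimate, and read depth was not estimated, so no counting intervals are given. No value column was unmapped.

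Transcript values were summed per gene. A gene entered the fit when its average over the libraries reached 1 FPKM. The fit was limma 3.58.1 (R 4.3.3) with a trend in the variance, on log2(FPKM + 1), a scale that understates the change of low genes. P-values were adjusted by Benjamini-Hochberg with a threshold of 0.05. The procedure was tested on simulated data. Sequences came from GENCODE M21 and RefSeq. The text names the 10 genes and, from each other list, called genes and the 2 most abundant tested ones, of which some are not reported here. The members and lists were chosen with earlier results of these data known. Alternatives were other pseudocounts (0.5 and 0.1), filters and scalings, no trend, single transcripts, a replicate block, a smooth muscle covariate and leaving out each library.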

Additional observations from a re-analysis of the deposited data

How the results depend on the processing

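None of the 10 enteroendocrine genes was called by limma under any of the 14 alternatives, at an adjusted p no smaller than 0.117 (Pyy, scaled to epithelial genes); at an unadjusted p under 0.05 there were 3 of them in the reported analysis and 0 to 3 under the alternatives. The count of called genes over the table was 15 as reported, 9 with a pseudocount of 0.1, 56 with a mean of at least 5 FPKM, 65 after scaling to epithelial genes, 2 without the trend, 1 for single transcripts and 3 with the smooth muscle covariate. It was 0 to 20 when 1 library was left out. Of the genes in the other lists, 1 was called as reported, 5 with a mean of at least 5 FPKM, 7 after epithelial scaling, 0 without the trend, 0 for single transcripts and 0 to 0 with 1 library left out. With the replicate block, 60 genes were called over the table, 6 in the other lists and 0 of the 10. Deviations of same-numbered libraries correlated at 0.034 over 11103 genes. With 2 pairs, this cannot decide whether same-numbered libraries shared a batch, and the labels state no pairing. Estimates of Pyy, Nts and Tac1 kept their sign in 14 of 14 alternatives, those of Sct, Cck and Chga in 13, Gip in 11, Gcg in 10 and Chgb in 9, and that of Tph1 in 12 of 13, as it could not be tested at a mean of at least 5 FPKM. Scaling moved the median of all genes by less than 0.1 on the log2 scale. The causes were not tested. For the 10 genes, the median absolute log2 fold change (0.17) lay near the median absolute difference between the 2 libraries of a group (0.13). This does not describe every gene named, as the replicates of Mme nearly coincided.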

Other observations

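Regional markers of the intestine were measured beside the hormone genes. In the distal small intestine list, 6 genes were tested, with 1 positive and 5 negative estimates and none called. Fabp6 was at 8059 and 6757 FPKM in vehicle replicates 1 and 2 and at 4228 and 3652 FPKM in PCN replicates 1 and 2, a log2 fold change of -0.91 ± 0.13 (limma adjusted p = 0.109). Slc51a, a subunit of the basolateral bile acid exporter, was at 489 and 424 FPKM in vehicle and at 335 and 295 FPKM in PCN (adjusted p = 0.209). In the proximal small intestine list, 7 genes were tested, with 2 positive and 5 negative estimates and none called. Rbp2, a retinol-binding protein of enterocytes, was at 255 and 260 FPKM in vehicle and at 167 and 175 FPKM in PCN (adjusted p = 0.0689), and Ckmt1 was at 338 and 318 FPKM in vehicle and at 307 and 283 FPKM in PCN (adjusted p = 0.605). In the large intestine list, 6 genes were tested, with 5 positive and 1 negative estimates and none called. B4galnt2, a glycosyltransferase, was at 228 and 205 FPKM in vehicle and at 294 and 267 FPKM in PCN (adjusted p = 0.292), and Saa1 overlapped between the groups at 315 to 573 FPKM. At an unadjusted limma p under 0.05 there were 3 of 6 distal, 4 of 7 proximal and 3 of 6 large intestine genes, against 9.36% of all tested genes.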
